A study of Arabidopsis thaliana with 8 samples.

Results

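Glutathione S-transferases (GSTs) were followed in light-grown *Arabidopsis* seedlings given brassinolide (BL) or a mock treatment, in wild type (WT) and in *yucca*. A gene was taken as a member when a probe set of the array had a single gene symbol beginning with GST, or the symbol ERD9 or ERD13, in the platform annotation. This rule found 13 genes, each with 1 probe set, among 13350 genes named by a single symbol. Of these, 11 were of the tau class (*GSTU15*, *GSTU16*, *GSTU18*, *GSTU20*, *GSTU21*, *GSTU22*, *GSTU23*, *GSTU25*, *GSTU26*, *GSTU27* and *GSTU28*), 1 was of the phi class (*GSTF4*) and 1 of the lambda class (*GSTL3*). The RefSeq gene table lists 49 genes of the family, with 28 in the tau class, 13 in the phi class, 3 in the lambda class, 3 in the theta class and 2 in the zeta class, so 13 of 49 were followed and no theta or zeta gene was among them. No probe set was named for ERD9, ERD13 or the phi genes *GSTF2*, *GSTF6* and *GSTF8* in the annotation used here, and these genes were not analysed.

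GSTs are mostly soluble enzymes that join the thiol of glutathione to electrophilic compounds, which are then moved into the vacuole. The tau and phi classes are plant enzymes with a catalytic serine and are known for the detoxification of herbicides and for transcripts that rise after chemical stress, pathogens and several hormones, auxin among them. Lambda enzymes carry a catalytic cysteine and act in thiol transfer rather than in conjugation.

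The study asked how auxin and brassinosteroids act on the same genes in seedling growth. RNA of whole seedlings was hybridized to 8 Affymetrix ATH1 arrays, 2 biological replicates for each of 4 groups. The groups were WT (Col-0) and *yucca*, each immersed for 2.5 h in half-strength Murashige medium alone (mock) or in the same medium with 1 μM BL, the most active brassinosteroid. All seedlings were 10 d old by the labels. The *yucca* mutant overproduces auxin in the intact plant and throughout its growth, so its comparison with WT is one of plants that had grown under high auxin and not of a short auxin treatment. The labels do not give its allele.

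Values are intensities in arbitrary units, quantile-normalized over the 8 arrays, which makes their distribution the same on each array. They can be set against each other between arrays for 1 gene but not between genes. Each array had a lower quartile of 15.98 and a median of about 67.3. Replicate arrays had a Pearson r across all probe sets of 0.998 in WT mock, 0.998 in WT BL, 0.994 in *yucca* mock and 0.995 in *yucca* BL. A gene was called changed in a fit with limma across 22746 probe sets when its adjusted p (Benjamini and Hochberg) was under 0.10 and its log odds of a change, B, was above 0. The deposited values of each genotype appear to have been normalized apart from those of the other, so genotype and processing batch cannot be told apart. *GH3.3*, an auxin-inducible gene for an enzyme that conjugates auxin, was higher in *yucca* by 1.73 on the log2 scale in mock arrays (SE 0.180, limma adjusted p = 0.000104) and served as a check of the genotype labels.

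Of the 13 genes, 7 were called in at least 1 comparison. All 7 were tau genes, the class of 11 of the 13, and the shares of all probe sets called are given with each comparison. *GSTU20* (AT1G78370) and *GSTU16* (AT1G59700) were higher in *yucca*, and *GSTU22* (AT1G78340), *GSTU25* (AT1G17180), *GSTU26* (AT1G17190), *GSTU27* (AT3G43800) and *GSTU28* (AT1G53680) were lower. Under BL, *GSTU20* fell in WT and no other gene of the family was called in either genotype in this fit. *GSTU25* was called lower with BL in some alternative fits, given below. The 6 genes called in no comparison were *GSTU15*, *GSTU18*, *GSTU21*, *GSTU23*, *GSTF4* and *GSTL3*. *GSTU15* and *GSTU21* stayed below the lower quartile of the arrays in every group, with highest group means of 11.8 and 10.3, so that little can be read from them.

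**Figure D1:**
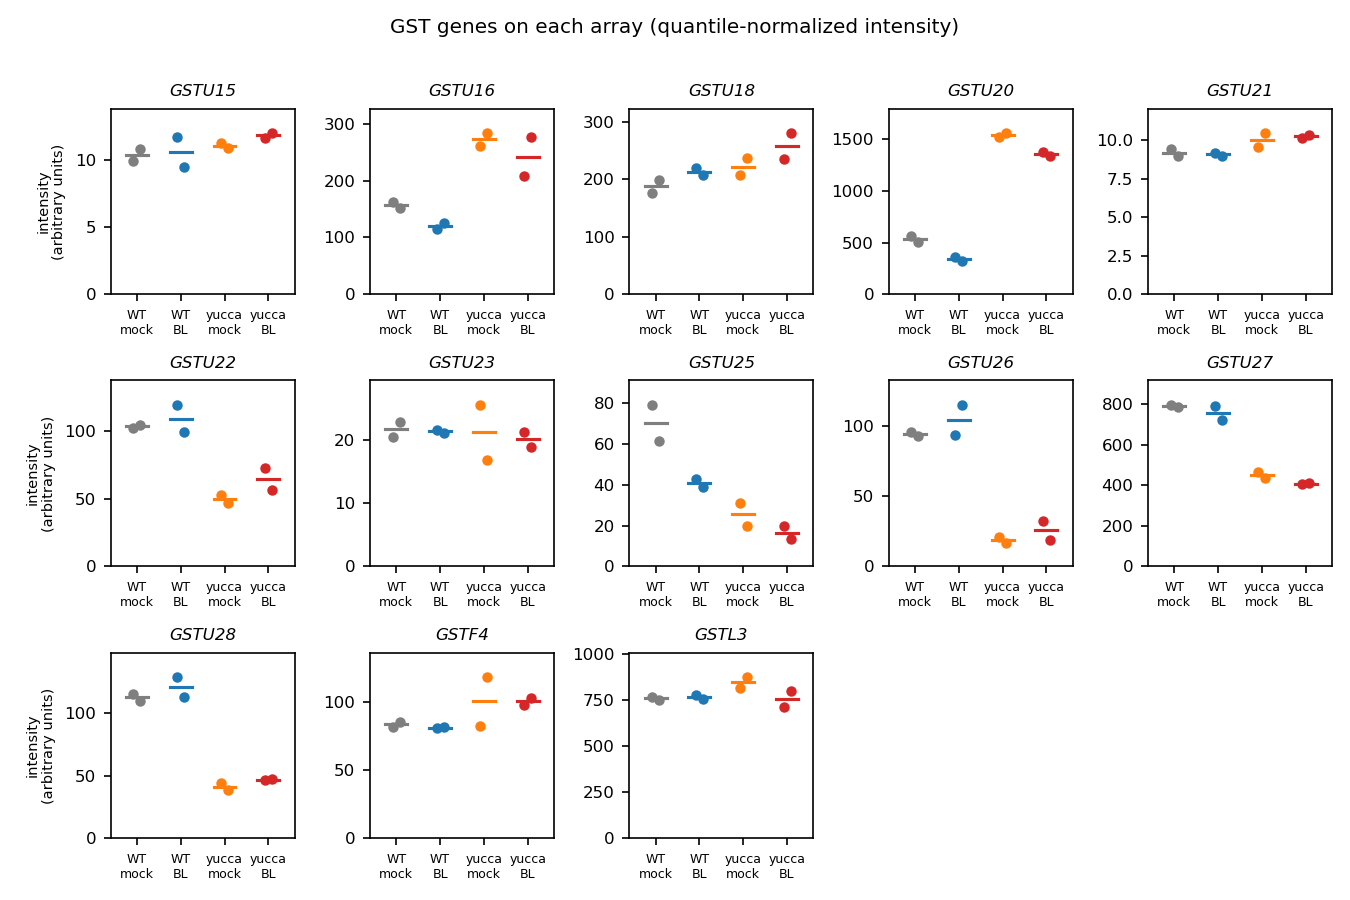
Quantile-normalized intensity (arbitrary units, linear axis from 0, with its own scale for each gene) of the 13 GST genes on the 8 arrays. Points are single arrays and bars are the means of the 2 arrays of a group; *GSTU20* and *GSTU16* lie higher on the *yucca* arrays and *GSTU22*, *GSTU25*, *GSTU26*, *GSTU27* and *GSTU28* lie lower.

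The first comparison asked which GST transcripts respond to BL in WT. *GSTU20*, whose product is known as a partner of the jasmonate-conjugating enzyme FIN219 in far-red light signaling, read 564 and 507 on the mock arrays and 363 and 321 on the BL arrays. Both BL arrays lay below both mock arrays. The mean fell from 536 ± 40.2 to 342 ± 30.1 (SD, n = 2), which is a difference on the log2 scale of -0.65 (SE 0.0991, limma adjusted p = 0.00943), or 1.57-fold lower. This call rested on single arrays, since without mock replicate 1 the change was -0.57 (limma adjusted p = 0.105) and without BL replicate 2 it was -0.56 (limma adjusted p = 0.111). Over its 18 alternatives the adjusted p ran from 0.00136 to 0.111.

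*GSTU25*, which encodes an enzyme known to conjugate the explosive trinitrotoluene, read 79.3 and 61.3 on the mock arrays of WT and 42.8 and 39.1 on the BL arrays. The mock arrays stood well apart from each other. Its log2 difference was -0.77 (SE 0.235) and did not pass the test (limma adjusted p = 0.172), but passed it in a fit of the WT arrays alone (limma adjusted p = 0.0152). Over its 18 alternatives the adjusted p ran from 0.00598 to 0.657. *GSTU16* read 162 and 152 on the mock arrays and 116 and 125 on the BL arrays, and its difference of -0.39 did not pass either (SE 0.135, limma adjusted p = 0.248). The other 10 genes had log2 differences between -0.07 and 0.18.

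In WT, 0 of the 13 genes were called higher and 1 (7.69%) was called lower with limma, where 1.3% of all probe sets were called higher and 0.910% lower. At an unadjusted p under 0.05, the numbers were 0 higher and 3 lower. The share of all probe sets at this threshold was not computed, here or below, so such counts cannot be judged against it. The median difference of the 13 genes was -0.02 on the log2 scale, beside -0.004 over all probe sets.

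The second comparison asked the same of *yucca* seedlings, where limma called 0 of the 13 genes in either direction, with 1.85% of all probe sets called higher and 1.78% lower. At an unadjusted p under 0.05, 1 gene was higher and 1 was lower. These were *GSTU22*, with a difference of 0.37 (SE 0.141, limma adjusted p = 0.187), and *GSTU25*, with a difference of -0.61 (SE 0.235, limma adjusted p = 0.191). *GSTU20* read 1524 and 1561 on the mock arrays and 1372 and 1336 on the BL arrays of *yucca*. Its log2 difference of -0.19 did not pass the test (SE 0.0991, limma adjusted p = 0.358). Its 95% interval ran from -0.41 to 0.04.

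**Figure D2:**
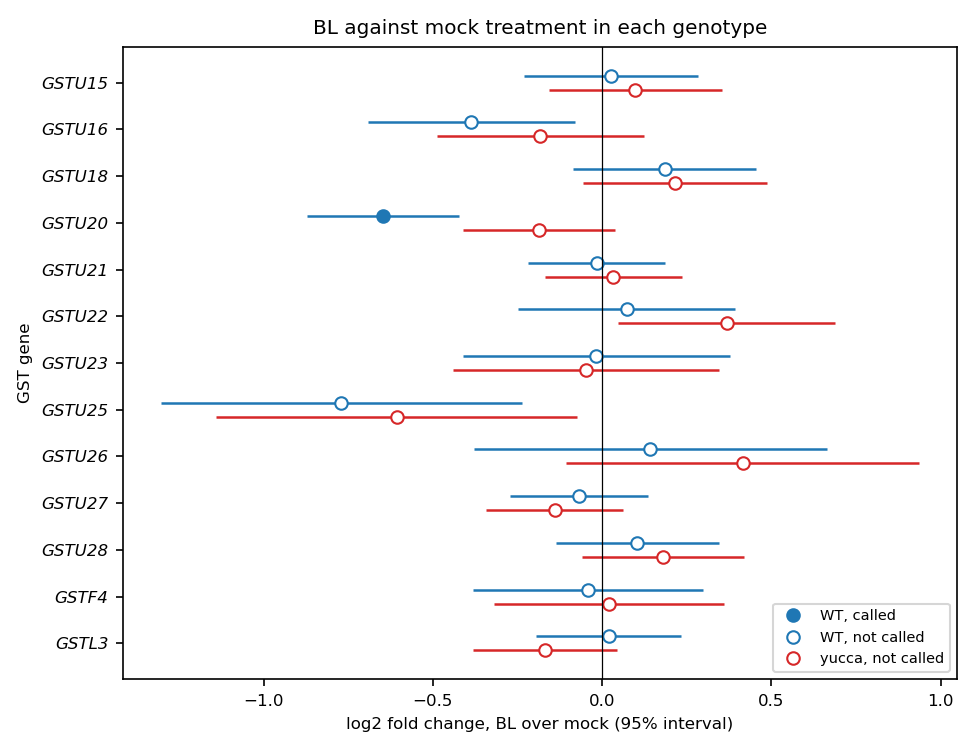
Log2 fold change of BL over mock for each GST gene in WT (blue) and *yucca* (red), with 95% intervals of the limma fit that are not adjusted for the number of genes. The filled point marks the only call, *GSTU20* in WT at -0.65, and open points did not pass the test.

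Whether the 2 genotypes differed in their response to BL was tested as an interaction, and limma called 0 of the 13 genes, with 0.00879% of all probe sets called higher and 0.0264% lower. At an unadjusted p under 0.05, 1 gene was higher and 0 were lower. That gene was *GSTU20*, whose response in *yucca* minus its response in WT was 0.46 on the log2 scale (SE 0.140, limma adjusted p = 0.391). So the call in WT and its absence in *yucca* are not shown to differ. For *GSTU25* the difference of the responses was 0.16, with a 95% interval from -0.59 to 0.92 that leaves room for a response of a different size in *yucca*. Over the 13 genes these differences ran from -0.19 to 0.46.

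The next comparison asked which GST transcripts differ in the high-auxin seedlings. *GSTU20* stood highest above WT. Its values on the 2 mock arrays of *yucca*, 1524 and 1561, were far above the 564 and 507 of WT. The means were 1542 ± 26.1 and 536 ± 40.2 (SD, n = 2 each), a 2.88-fold difference and 1.53 on the log2 scale (SE 0.0991, limma adjusted p = 8.96e-06). After BL, the gene read 1372 and 1336 in *yucca* and 363 and 321 in WT, a 3.97-fold difference and 1.99 on the log2 scale (SE 0.0991, limma adjusted p = 4.65e-06). All 4 *yucca* arrays lay above all 4 WT arrays. In whole seedlings, more cells that express the gene and more RNA per cell cannot be told apart.

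*GSTU16*, another tau gene, read 162 and 152 in WT mock and 261 and 284 in *yucca* mock. It was 1.73-fold higher in *yucca* (log2 difference 0.79, SE 0.135, limma adjusted p = 0.00155). After BL the WT arrays read 116 and 125 and the *yucca* arrays 208 and 277, a difference of 1.00 on the log2 scale (SE 0.135, limma adjusted p = 0.000494). No *yucca* array reached down to a WT array in either treatment, although the *yucca* BL arrays were spread widely. The call in mock arrays was lost when any 1 of 6 arrays was left out, namely each WT array and each *yucca* mock array, with differences from 0.73 to 0.86, and the call in BL arrays was lost without WT BL replicate 1 (0.94, limma adjusted p = 0.00690). Both calls also rested on the scaling, since on the values as deposited the differences were -0.17 in mock arrays and 0.02 in BL arrays, where the median over all probe sets was -0.87 and -0.86.

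The genes that were lower in *yucca* were led by *GSTU26*, whose transcript is known to rise after chloroacetanilide herbicides. It read 95.5 and 92.7 in WT mock and 21.1 and 16.4 in *yucca* mock. The *yucca* values lay near the lower quartile of the array. The gene was 5.05-fold lower, a log2 difference of -2.34 (SE 0.230, limma adjusted p = 7.86e-05). After BL it read 93.8 and 115 in WT and 32.5 and 19.0 in *yucca*, a difference of -2.06 (SE 0.230, limma adjusted p = 0.000175). Where 16 was added to each value before the logarithm, which damps differences of dim genes, the differences were -1.67 and -1.54, and both were still called.

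*GSTU28* read 115 and 110 in WT mock and 44.3 and 38.4 in *yucca* mock. After BL it read 129 and 113 in WT and 46.3 and 47.1 in *yucca*. The lowest WT array stood well above the highest *yucca* array. The log2 differences were -1.45 (SE 0.106, limma adjusted p = 1.68e-05) in mock arrays and -1.37 (SE 0.106, limma adjusted p = 2.84e-05) in BL arrays.

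*GSTU27* was among the brighter probe sets, at 797 and 785 in WT mock and 464 and 436 in *yucca* mock. After BL it read 789 and 721 in WT and 405 and 412 in *yucca*. Again the genotypes did not overlap. The gene was 1.76-fold lower in mock arrays (log2 difference -0.81, SE 0.0894, limma adjusted p = 0.000143) and differed by -0.89 in BL arrays (SE 0.0894, limma adjusted p = 0.000103).

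*GSTU25* was lower in *yucca* as well as showing the values under BL given above. The *yucca* mock arrays read 31.2 and 19.8, against 79.3 and 61.3 in WT, a log2 difference of -1.49 (SE 0.235, limma adjusted p = 0.00103). The *yucca* BL arrays read 19.6 and 13.6, against 42.8 and 39.1 in WT, a difference of -1.33 (SE 0.235, limma adjusted p = 0.00202). In both treatments each *yucca* array was below each WT array. The calls were the least firm of the lower genes that were called in both treatments. In mock arrays the call was lost when any of the 4 WT arrays or *yucca* mock replicate 2 was left out, with differences from -1.68 to -1.16, and in BL arrays when any of the WT arrays or *yucca* BL replicate 2 was left out, with differences from -1.39 to -1.06. The call in BL arrays, where the *yucca* values lay around the lower quartile, was also lost with 16 added before the logarithm (-0.81) and with dim probe sets left out. All these calls were lost on B, while the adjusted p stayed under 0.10.

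*GSTU22* read 102 and 105 in WT mock and 52.7 and 46.5 in *yucca* mock, a log2 difference of -1.06 (SE 0.141, limma adjusted p = 0.000409). This call was lost without WT mock replicate 1 or 2 (-1.08 and -1.05), on B and not on the adjusted p. After BL the gene read 119 and 99.0 in WT and 72.5 and 56.3 in *yucca*. The difference of -0.77 had an adjusted p of 0.00248 in limma, but B was -0.27 and the gene was not called. It was called in 5 of 17 alternatives, among them equal array medians (-0.77, limma adjusted p = 0.00184) and the fit without *yucca* BL replicate 1 (-0.95).

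**Figure D3:**
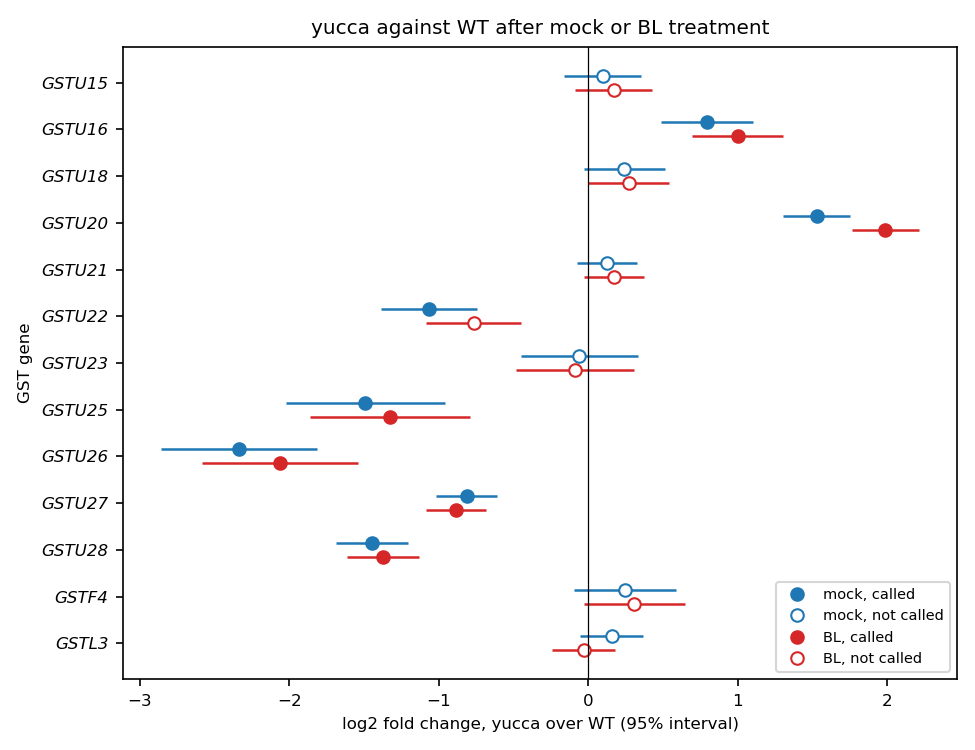
Log2 fold change of *yucca* over WT for each GST gene on mock arrays (blue) and BL arrays (red), with 95% intervals of the limma fit that are not adjusted for the number of genes. Filled points were called; *GSTU20* lies farthest to the right at 1.53 and 1.99 and *GSTU26* farthest to the left at -2.34 and -2.06.

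Among mock arrays, 2 of the 13 genes (15.4%) were called higher in *yucca* and 5 (38.5%) lower, where 8.48% of all probe sets were called higher and 8.69% lower. Among BL arrays, 2 (15.4%) were called higher and 4 (30.8%) lower, where 8.18% of all probe sets were called higher and 8.49% lower. In both treatments 6 genes were called with the same direction, and the share of all probe sets called in both was not computed. The mock and BL arrays are separate samples, although their spread was estimated together. The genotypes appear to have been normalized apart, and a difference of processing would recur in both treatments. The median over the 13 genes was 0.10 in mock arrays and -0.03 in BL arrays, with calls on both sides of 0. The genes not called in mock arrays had differences from -0.06 to 0.25. *GSTU18* differed by 0.24 (limma adjusted p = 0.133), where the WT arrays read 176 and 199 and the *yucca* arrays 207 and 236. *GSTU23* stayed between 16.9 and 25.7 on all 8 arrays, with the extremes of this range in the same group, *yucca* mock. *GSTF4*, the phi gene, differed by 0.25 in mock arrays (limma adjusted p = 0.209), where its *yucca* arrays read 82.9 and 119. *GSTL3*, whose lambda class reduces glutathione conjugates of flavonols, differed by 0.16 (limma adjusted p = 0.207), and its 95% interval ran from -0.06 to 0.37.

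Neighbouring genes of the family did not all move alike. *GSTU23*, *GSTU22*, *GSTU21* and *GSTU20* follow each other on chromosome 1 in the RefSeq gene table without another protein-coding gene between them. *GSTU19*, not analysed here, is next to *GSTU20*. Within this run *GSTU20* was higher in *yucca* mock arrays by 1.53 and *GSTU22* was lower by a log2 difference of -1.06, while *GSTU21* (0.12) and *GSTU23* (-0.06) were not called. *GSTU25* and *GSTU26* are also next to each other on chromosome 1, beside *GSTU24*, and both were lower in *yucca*. Of these neighbours *GSTU25* had a BL difference of -0.77 in WT and *GSTU26* one of 0.14, and neither was called. Tandem copies of a family can share sequence, and whether a probe set also reports a neighbour was not tested.

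Other genes with related roles were taken from lists of known roles. These lists were chosen with earlier results of these data known, so counts over them are a description and not independent evidence. Of 18 listed genes of chemical detoxification, 5 had a probe set named here, and all 5 were called higher in *yucca* mock arrays, with a median difference of 2.41 on the log2 scale. *UGT73B5*, a glucosyltransferase known from responses to pathogens and oxidative stress, read 44.3 and 61.6 in WT mock and 1038 and 1000.1 in *yucca* mock (log2 difference 4.29, SE 0.229, limma adjusted p = 3.66e-06). *AER*, which encodes an alkenal reductase that removes reactive aldehydes, read 133 and 127 in WT mock and 762 and 765 in *yucca* mock (2.56, SE 0.118, limma adjusted p = 2.36e-06). The *yucca* arrays of both genes stood far above those of WT.

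*UGT73B4* and *UGT73C1*, glucosyltransferases known to act on products of trinitrotoluene, were higher by 2.22 and 2.41 (limma adjusted p = 0.000113 and 0.000146). *DTX3*, of the MATE family of transporters, was higher by 0.66 (limma adjusted p = 0.000535). In WT mock *UGT73C1* read 11.6 and 12.0 and *DTX3* 11.2 and 11.7, below the lower quartile of 15.98. In *yucca* mock they read 77.5 and 50.4, and 19.1 and 17.3, so *DTX3* stayed near that quartile and little can be read from it. The alternatives run for the GST genes were not run for the listed genes. Among these mock arrays 8.48% of all probe sets were called higher, and the other 13 listed detoxification genes had no probe set named here. Among BL arrays, 3 of 5 were called higher in *yucca* (*UGT73B5*, *DTX3* and *AER*), where 8.18% of all probe sets were called higher. Of the others, *UGT73B4* differed by 0.01 (limma adjusted p = 0.968) and *UGT73C1* by 1.44 (limma adjusted p = 0.00252, B of -0.29). Under BL, limma called 0 of the 5 genes in WT in either direction, and at an unadjusted p under 0.05 *UGT73B4* and *UGT73B5* were lower. In *yucca*, *UGT73B4* fell by 2.79 and *UGT73B5* fell by 1.90 on the log2 scale with BL (limma adjusted p = 0.000235 and 0.00147). The difference of this response between genotypes did not pass the test for either (limma adjusted p = 0.126 and 0.257). *UGT73B4* read 136.6 and 110.9 on the mock arrays and 23.9 and 13.2 on the BL arrays.

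**Figure D4:**
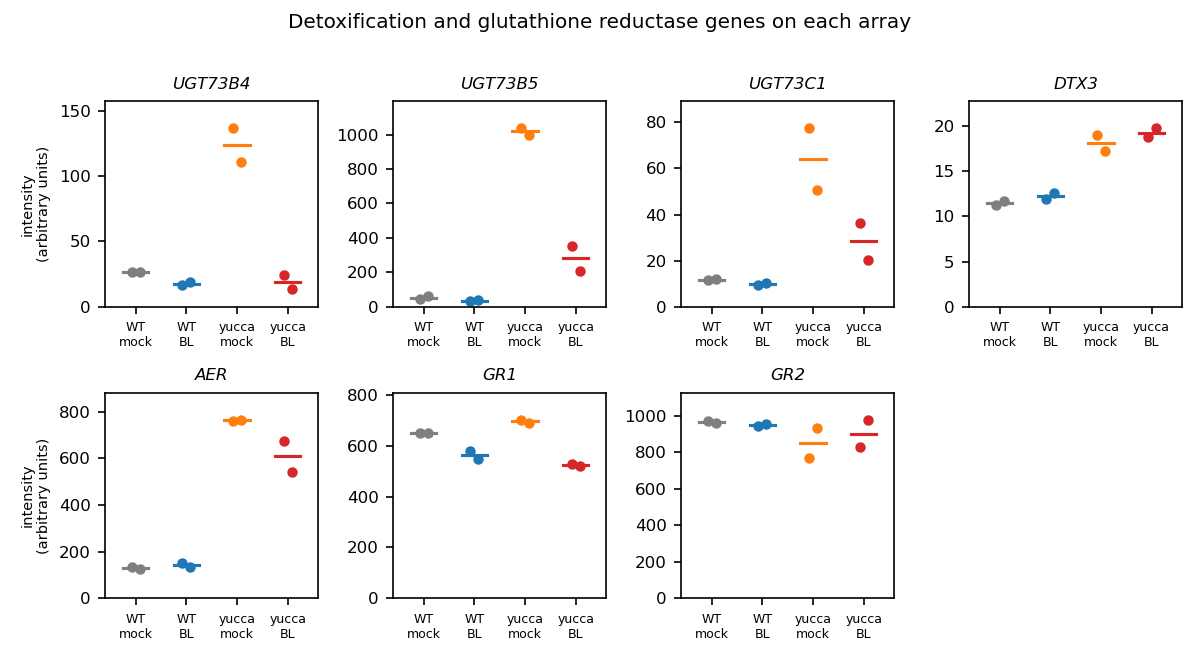
Quantile-normalized intensity (arbitrary units, linear axis from 0, with its own scale for each gene) of the 5 detoxification genes and of *GR1* and *GR2* on the 8 arrays. Points are single arrays and bars are group means. The *yucca* mock arrays of the 5 detoxification genes lie above both groups of WT. *UGT73B4*, *UGT73B5*, *UGT73C1*, *AER* and *GR1* lie lower on the *yucca* BL arrays than on the *yucca* mock arrays. Of these, *UGT73B4* and *UGT73B5* were called.

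Of 24 listed genes of glutathione metabolism, 2 were measured, and limma called neither in any comparison, although *GR1* was lower with BL in both genotypes at an unadjusted p under 0.05. These were the glutathione reductases *GR1* and *GR2*, which keep glutathione in its reduced form. *GR1* read 703 and 691 on the mock arrays of *yucca* and 528 and 519 on the BL arrays, a log2 difference of -0.41 with an adjusted p of 0.0189 in limma and a B of -0.60. Of 10 listed genes of glucosinolate synthesis, whose core pathway uses glutathione as its sulfur donor, 2 were measured and neither was called. *UGT74B1*, the glucosyltransferase of the core pathway, differed by -0.60 with BL in WT (limma adjusted p = 0.0338, B of -0.47) and by -0.53 in *yucca* (limma adjusted p = 0.0335, B of -1.50). *BCAT4*, which opens the chain elongation of methionine and is outside the core pathway, differed by -0.90 with BL in WT (limma adjusted p = 0.240). Between genotypes it differed by 1.11 in mock arrays (limma adjusted p = 0.0178, B of -3.13) and by 1.69 in BL arrays (limma adjusted p = 0.00248, B of -0.26), higher in *yucca*.

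Of 8 listed anthocyanin genes, which include the pigment pathway that GSTs serve in transport, 3 were measured. *DFR*, for dihydroflavonol reductase, was higher in *yucca* BL arrays by 1.17 (SE 0.175, limma adjusted p = 0.000855). It read 16.1 and 13.4 in WT BL, around the lower quartile of 15.98, and 30.1 and 36.0 in *yucca* BL. In mock arrays it differed by 0.48 and was not called (limma adjusted p = 0.0498, B of -4.46). *UF3GT* and *5MAT* were not called. Of 8 TGA transcription factors and their cofactors, which are known to act at GST promoters, 0 had a probe set named here.

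Markers of shoot and root were read on the same arrays. Of 13 shoot genes, 3 were measured (*RCA*, *SBPASE* and *PRK*), and their summed intensity was 21009 to 21054 in WT mock, 21053 to 21282 in WT BL, 20097 to 20646 in *yucca* mock and 19900.1 to 20765 in *yucca* BL. More than any other gene *RCA* made up this sum, at 11955 or 12309 on every array, values that quantile normalization assigns to the top ranks, so the sum says little about shoot tissue. *PRK* read 4737 to 5010.1 on the WT arrays and 4073 to 4372 on the *yucca* arrays. Of 16 root genes, 3 were measured (*PYK10*, *EXPA7* and *EXPA18*), with sums of 4795 to 5423, 4510.4 to 4860.2, 4772 to 4875 and 5109 to 5293 in the same order, nearly all of it *PYK10*. With limma 0 of the 6 genes were called in any comparison, and at an unadjusted p under 0.05 *PRK*, *EXPA7* and *EXPA18* were lower in *yucca* with either treatment. The root hair expansins *EXPA18* and *EXPA7* read lower in *yucca* mock arrays, as did the 5 lower GST genes. Their log2 differences were -1.54 (limma adjusted p = 0.00270, B of -0.53) and -0.82 (limma adjusted p = 0.0328, B of -3.93). *PYK10*, the other root gene measured, did not go with them. It differed by -0.04 in mock arrays (limma adjusted p = 0.739) and by 0.20 in BL arrays (limma adjusted p = 0.117). The part of these root genes in the GST differences was not tested.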

How the data were processed

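The authors deposited intensities on a linear scale for 22810 probe sets, made by rma, that is, by background correction, quantile normalization and a robust summary over the probes of a set. Each pair of arrays of 1 genotype had 19 to 86 probe sets with exactly equal deposited values (no tolerance) and each pair across genotypes had 0, and array medians were 86.8 to 90.0 in WT and 44.7 to 46.4 in *yucca*, so the genotypes appear to have been normalized apart. All values were therefore quantile-normalized over the 8 arrays, with no filter on low values, and taken as log2. The 64 control probe sets were left out.

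A linear model with 4 group means was fitted to the 8 arrays (4 residual degrees of freedom) in limma 3.58.1 (R 4.3.3), with moderated spreads and an assumed proportion of changed genes of 0.01. Calls needed a Benjamini-Hochberg adjusted p under 0.10 within the comparison and B above 0. The fit was tested on simulated data with 200 changed probe sets. Of 1.5-fold changes it recovered 41.8% to 56.7% in comparisons of 2 groups and 23.9% for the difference of responses. Of 2-fold changes it recovered 83.6% to 88.1% and 64.2%. Each comparison had 8 to 15 false calls. A gene that was not called can therefore have changed. With 2 arrays per group, their number limits the precision, and groups can fail to overlap without a difference between them.

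Of the probe sets, 13513 carried a single gene symbol and 503 carried several. Genes whose probe sets had no single symbol may be on the array and were not analysed here. Array values are printed for up to 6 called members per comparison and direction and for members with well-known roles. Outside this rule they are also printed for *GSTU18* and *GSTF4*, which were not called, and for *ATGSTF13*. Genes outside the family came only from lists of known roles. The members and lists were chosen with earlier results of these data known. Alternatives were the values as deposited, equal array medians, only the groups compared, an adjusted p under 0.05, no B criterion, an intensity trend in the spread, a replicate block, 16 added before log2, a filter on mean log2 values under 5, and leaving out each array. Correlations between members over arrays were left out, because the arrays fell into 2 genotypes with 4 arrays each. Chromosome neighbours are from the RefSeq gene table, among protein-coding genes only. Age is as labelled, and the study's methods give a lower age.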

Additional observations from a re-analysis of the deposited data

How the results depend on the processing

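Differences between *yucca* and WT rest on the scaling. On the values as deposited the median over all probe sets was -0.87 in mock arrays and -0.86 in BL arrays, and with array medians set equal it was 0.11 and 0.10. Of all calls in mock arrays, 49.4% were higher in *yucca*, 1.70% on the values as deposited and 60.0% with equal medians. On the values as deposited, 1 gene was called higher and 8 lower in mock arrays, and 1 higher and 7 lower in BL arrays. Differences above 0 fell below it there for *GSTU15* (-0.61), *GSTU16* (-0.17), *GSTU18* (-0.73), *GSTU21* (-0.60), *GSTF4* (-0.74) and *GSTL3* (-0.80) in mock arrays and for *GSTU15* (-0.54), *GSTU18* (-0.71), *GSTU21* (-0.56) and *GSTF4* (-0.67) in BL arrays, all less negative than the median of all probe sets. *GSTU16* was not called there in BL arrays (0.02). Relative to that median *GSTU16* was 0.70 in mock arrays. *GSTU20*, *GSTU26*, *GSTU27* and *GSTU28* kept their direction and their calls between genotypes in all 17 alternatives run for each treatment. In mock arrays *GSTU20* ran from 0.59 to 1.60 and *GSTU26* from -3.16 to -1.67.

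In mock arrays, 1 gene was called higher with 16 added before log2, and also with dim probe sets left out, a filter that 10 of the 13 genes passed. The gene lost was *GSTU16* in both, and the cause was not tested. In BL arrays 3 genes were lower under each of these, *GSTU25* being lost, and 5 with equal array medians, *GSTU22* being gained.

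The genes called lower with BL in WT numbered 2 where the fit held the WT arrays alone, *GSTU25* being added. The replicate numbers were not a stated pairing. Deviations from the group means had an r of 0.20 between WT mock and WT BL and of 0.37 between *yucca* mock and *yucca* BL. For pairs of groups across genotypes r ran from -0.07 to -0.03. The main fit takes no account of such a pairing. With a replicate block, 2 genes were called lower with BL in WT, *GSTU25* being added (adjusted p = 0.0177), and 5 lower in *yucca* BL arrays, *GSTU22* being added. With a replicate block within each genotype, chosen after seeing the data, 2 were called lower with BL in WT and 1 in *yucca*, *GSTU25* being added in each (adjusted p = 0.00598 and 0.00802).

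Leaving out each array gave 0 to 1 genes lower with BL in WT, 1 to 2 higher and 3 to 5 lower in *yucca* mock arrays, and 1 to 2 higher and 3 to 5 lower in *yucca* BL arrays. The 3 lower in mock arrays stood without WT mock replicate 1 and without WT mock replicate 2, where *GSTU22* and *GSTU25* were lost on B. The counts of genes called higher with BL, and of the difference of responses, were 0 throughout. A mean over the probe sets of a gene was not run, since each gene had 1.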

Other observations

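*ATGSTF13*, a further gene of the phi class, carries a symbol outside the rule that chose the family. It was named after its values were seen. It read 19.4 and 19.7 on the WT mock arrays, 13.0 and 13.2 on the WT BL arrays, 13.6 and 10.02 on the *yucca* mock arrays and 11.1 and 11.0 on the *yucca* BL arrays. The values of the last 3 groups lay below the lower quartile of the arrays, 15.98. With BL in WT its log2 difference was -0.57, with an adjusted p of 0.0605 in limma and a B of -1.37, and in *yucca* mock arrays it was -0.74, with an adjusted p of 0.00206 in limma and a B of -0.14. Neither difference was called.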
